A study of Mus musculus with 5 samples.

Results

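Cassette exons of 5 genes linked to cardiac fuel use, Cpt1b, Pnpla2, Pfkfb3, Ppargc1b and Gfpt1, were read out in left ventricles of STZ and Control mice. A cassette exon is an exon that a transcript either holds or skips, and each is called an event here. The 5 genes had 8 events among the 6616 in the deposited tables. An event was assigned to a gene by matching the lengths of its exon and of both neighbouring introns to mouse annotation, and otherwise by the symbol in the tables. With the tables' symbols put first the genes had 7 events, because the tables give the Cpt1b event to the neighbouring gene Chkb. The lengths of that event match a Cpt1b transcript alone, and a RefSeq readthrough gene that joins Chkb and Cpt1b spans the same exon. Its reads are therefore given as Cpt1b reads that a Chkb-Cpt1b readthrough transcript could share.

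STZ mice (3 samples) were C57BL/6 animals injected intraperitoneally with streptozotocin at 70 mg/kg on each of 5 days from 8 weeks of age. Control mice (2 samples) were of the same strain and age and were injected with citrate buffer alone. Ventricles of both groups were taken at 12 weeks. Streptozotocin kills pancreatic beta cells, which make insulin, a common way to make mice diabetic. The labels do not say that each sample is a separate animal, so p-values measure the spread between these samples, which may be technical. The 3 STZ libraries (A, B and C) and the 2 Control libraries (A and B) were told apart by the sizes of their groups alone. The names of the libraries follow 2 patterns, each found in a single group, so what these patterns stand for and treatment cannot be told apart.

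The adult heart makes most of its ATP by oxidising fatty acids and shifts between fatty acids and glucose with supply and hormones. A diabetic heart is known for leaning further on fatty acids and taking up less glucose. Pnpla2 (adipose triglyceride lipase, ATGL) cuts the first fatty acid from stored triglyceride. Cpt1b, the muscle form of carnitine palmitoyltransferase, admits long-chain fatty acids to mitochondria. Pfkfb3 makes fructose 2,6-bisphosphate, which activates glycolysis. Ppargc1b (PGC-1beta) is a coactivator of nuclear receptors that drive mitochondrial genes. Gfpt1 diverts fructose 6-phosphate into the hexosamine pathway, which feeds protein O-GlcNAc modification.

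The exon sequences below come from GENCODE transcripts in the mouse build GRCm38, written 5′ to 3′ on the strand of the gene, and show what each alternative adds to or takes from the message. Capitals mark a stop codon in frame. The Pfkfb3 exons of 87 bases (chr2:11481247-11481333, minus strand) and 174 bases (chr2:11480198-11480371, minus strand) lie near the end of the coding sequence, and both lengths are multiples of 3, so the reading frame is kept with or without them. They add 29 and 58 codons.
Pfkfb3 87-nt exon: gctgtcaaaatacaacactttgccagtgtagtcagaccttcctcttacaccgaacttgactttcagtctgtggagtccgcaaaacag
Pfkfb3 174-nt exon: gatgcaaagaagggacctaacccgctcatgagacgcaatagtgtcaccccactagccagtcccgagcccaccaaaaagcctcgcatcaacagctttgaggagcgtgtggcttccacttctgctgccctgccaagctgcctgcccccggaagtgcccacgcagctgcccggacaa
The Pnpla2 exon of 82 bases (chr7:141456568-141456649, plus strand) is in 2 annotated transcripts, both of the nonsense-mediated decay class, the pathway that destroys messages with an early stop. Its first 26 bases end in that stop.
Pnpla2 82-nt exon, first 26 bases: gtgatcttgagcagctagaacaaTGA
The Cpt1b exon of 85 bases (chr15:89422125-89422209, minus strand) and the Gfpt1 exon of 62 bases (chr6:87059380-87059441, plus strand) are coding, and neither length is a multiple of 3. Without the Gfpt1 exon, number 7 of 19, the frame runs into TAG at base 7 of exon 8. Without the Cpt1b exon, number 9 of 19, it runs into TAG at base 3 of exon 11.
Cpt1b 85-nt exon: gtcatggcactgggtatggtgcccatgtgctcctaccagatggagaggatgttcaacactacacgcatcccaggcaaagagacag
Gfpt1 62-nt exon: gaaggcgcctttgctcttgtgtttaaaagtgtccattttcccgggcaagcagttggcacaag
Gfpt1 exon 8, first 9 bases read after skipping: gcgaggTAG
The other Gfpt1 exon, of 59 bases (chr6:87053202-87053260, plus strand), is in a single annotated transcript of 5 exons.
Gfpt1 59-nt exon: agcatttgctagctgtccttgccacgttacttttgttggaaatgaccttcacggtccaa

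Gene levels were taken as event reads, the reads on a gene's events that fit the including isoform, the skipping isoform or both, scaled to 1000000 such reads in the library (event RPM). Libraries held 6741244 to 7676251 event reads in STZ and 9231777 and 11431749 in Control. STZ was set against Control with limma on log2(event RPM + 1), with Benjamini-Hochberg adjustment over 3892 genes, and a gene at an adjusted p under 0.05 is called changed. Of all genes, 49.0% were called (18.8% higher and 30.2% lower in STZ), and the groups did not overlap in 68.8%. The median gene fell by 0.16 on the log2 scale, and scaling by the median ratio between libraries moved that median up by 0.17 and turned the split of calls from 730 higher and 1176 lower to 941 higher and 969 lower. In whole tissue, fewer cells of a type and less RNA per cell cannot be told apart.

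Pnpla2, Pfkfb3 and Cpt1b were higher in STZ ventricles, and Ppargc1b and Gfpt1 were lower. The calls of Cpt1b and Gfpt1 were lost when some library was left out. The 2 that rose most were the lipase Pnpla2, 4.39 times the Control mean, and the glycolytic activator Pfkfb3, 11.2 times. Ppargc1b stood at 0.0733 of its Control mean in event reads, and at 0.194 in reads that fitted neither isoform. All 5 members were called, against 49.0% of all genes, and in all 5 the libraries of the groups were apart, against 68.8%. The members were chosen with such results known, so this count is a description.

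Pnpla2 had 4594, 4277 and 3969.7 event RPM in STZ A, B and C, against 989 and 961 in Control A and B. Every STZ library stood far above both Control libraries, and the spread within a group was small beside the gap. The means were 4280.1 ± 312 in STZ and 975 ± 19.8 in Control (SD, n = 3 and n = 2). The log2 change was 2.13 ± 0.12 (SE, adjusted p = 2.9e-05, limma). Of all genes tested, 133 had a larger absolute change.

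Pfkfb3 had 986, 1718 and 1959.6 event RPM in STZ A, B and C, against 132 and 146 in Control A and B. STZ A was the lowest of the STZ libraries and still well above both Control libraries. The means were 1554 ± 507 in STZ and 139 ± 9.54 in Control (SD, n = 3 and n = 2), a log2 change of 3.42 ± 0.26 (SE, adjusted p = 6.3e-05, limma). Only 8 genes changed more in either direction. Pfkfb3 is abundant in endothelial cells as well as being induced in other cells, and the endothelial marker Pecam1 moved in the same direction, at 4415, 5529 and 7232 event RPM in STZ, against 1931 and 1726 in Control. Pecam1 was the only 1 of 8 endothelial markers with an event, and its part in the Pfkfb3 result was not tested.

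Cpt1b had 984, 919.9 and 899 event RPM in STZ A, B and C, against 659.6 and 762 in Control A and B. The groups did not overlap, but the step was small, 1.31 times the Control mean. The log2 change was 0.40 ± 0.12 (SE, adjusted p = 0.0286, limma), and 2428 genes had a larger absolute change. The call was lost without Control A (adjusted p = 0.285, limma), without Control B (0.0876) and without STZ B (0.0737), and also with informative reads only (0.0884) and with no trend in the prior variance (0.0745). Reads on the event that fitted neither isoform were 520.2 ± 20.6 in STZ and 504 ± 14.9 in Control per 1000000 such reads, 1.03 times the Control mean, and overlapped between the groups.

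Ppargc1b had 1.71, 1.30 and 0.742 event RPM in STZ A, B and C, against 17.1 in each of Control A and B. These rest on 13, 10 and 5 reads in STZ and on 158 and 195 reads in Control. The means were 1.25 ± 0.488 in STZ and 17.1 ± 0.0403 in Control (SD, n = 3 and n = 2), so the Control mean was 13.6 times the STZ mean. Most reads on this event fitted neither isoform (634, 376 and 242 in STZ and 2703 and 2723 in Control), and in those, scaled to 1000000 such reads, the Control mean was 5.16 times the STZ mean. On the log2(event RPM + 1) scale, which understates the change of a low gene, it fell by 3.03 ± 0.26 (SE, adjusted p = 0.000103, limma). Only 21 genes changed more in either direction.

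Gfpt1 had 6.85, 3.91 and 2.82 event RPM in STZ A, B and C, against 9.97 and 10.1 in Control A and B. The reads behind them numbered 52, 30 and 19 in STZ and 92 and 116 in Control. All STZ libraries were below both Control libraries, with STZ A the nearest to them. Gfpt1 fell by 1.07 ± 0.32 on the log2 scale (SE, adjusted p = 0.0226, limma). The call was lost without Control A (adjusted p = 0.112, limma), Control B (0.118), STZ B (0.0668) or STZ C (0.0568).

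**Figure D1:**
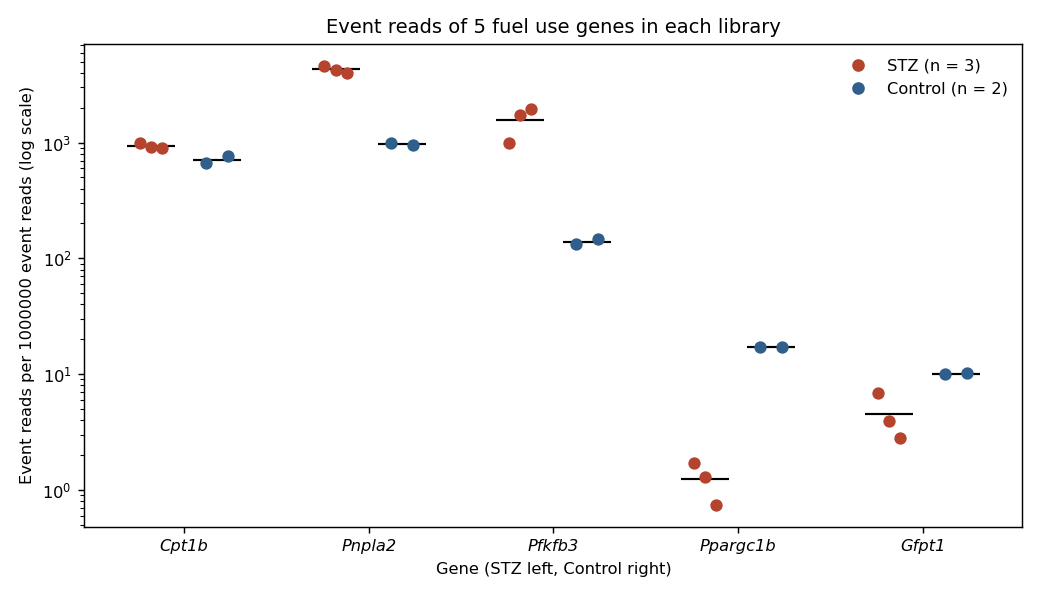
Event reads per 1000000 event reads (event RPM, log scale) of the 5 genes, one point per library, STZ (n = 3) left of Control (n = 2), with a bar at each group mean. Pnpla2, Pfkfb3 and Cpt1b sit higher in STZ and Ppargc1b and Gfpt1 lower, with no overlap between the groups.

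Event reads of different genes were compared per kilobase of the exons of their events. Reads that fit neither isoform are left out, and their share differs between genes. In STZ A, Ppargc1b had 634 of them beside 13 event reads, and Gfpt1 116 beside 52. Reads shared by events of a gene count in both. The orders below therefore hold for event reads and are not orders of transcript levels. In STZ the order was Pnpla2 (4482 ± 327 event RPM per kilobase), Cpt1b (2402 ± 113), Pfkfb3 (416 ± 136), Gfpt1 (6.93 ± 3.20) and Ppargc1b (3.17 ± 1.23; SD, n = 3). In Control it was Cpt1b (1827 ± 186), Pnpla2 (1021 ± 20.7), Ppargc1b (43.3 ± 0.102), Pfkfb3 (37.2 ± 2.55) and Gfpt1 (15.4 ± 0.197; SD, n = 2). Neighbours in these orders did not overlap between libraries, except Gfpt1 and Ppargc1b in STZ. Pnpla2 thus stood above Cpt1b in STZ and below it in Control, and Pfkfb3 stood above Ppargc1b in STZ and below it in Control.

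Inclusion of the exons was taken as Psi, the authors' estimate of the fraction of transcripts that hold the exon. Informative reads are those that fit the including or the skipping isoform alone, and a minimum of 10 of them in each library was required for a test. Of the 8 events, 5 met this, and 0 of the 5 were called in limma on the logit of Psi, against 15.0% of the 4769 events tested. The smallest unadjusted p of the 5 was 0.0436 (limma), for the Gfpt1 62-nt exon, whose skipping reads all came from STZ A. The share of all events at an unadjusted p under 0.05 was not counted. Psi did not overlap between the groups in 1 of these 5, against 42.9% of tested events. Both Pnpla2 exons had the same Psi in every library, so neither could be called. With so few events, none of the counts given here sets the members apart from other events. By the authors' deposited table, 0 of the 8 had a difference of 0.20 or more in the same direction, with a Bayes factor no lower than 10, for each of the 6 pairs of libraries, against 3.22% of all events.

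Psi of both Pnpla2 exons was the same to 2 decimals in every library. The 168-nt exon (mm9 chr7:148644491-148644658), which adds 56 codons, was at a Psi of 1.00 in all 5 libraries. Skipping was seen in 1, 0 and 1 reads in STZ A, B and C, against 14538, 14442 and 11857 including reads, and in 0 reads of both Control libraries, against 3936 and 4554. A count of 0 allows a skipping share of up to 0.0208% of informative reads in STZ B, and of 0.0762% and 0.0659% in Control A and B. The 82-nt exon with the early stop (mm9 chr7:148642467-148642548) was at a Psi of 0.00 in all 5 libraries.

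Reads that hold the 82-nt Pnpla2 exon were nevertheless present in every library, 21, 20 and 11 in STZ and 5 and 7 in Control. Scaled to event RPM they came to 2.34 ± 0.614 in STZ and 0.577 ± 0.050 in Control, 4.05 times as many. Reads that skip it came to 559 ± 14.3 in STZ and 140.3 ± 4.13 in Control, 3.99 times as many (SD, n = 3 and n = 2). The form with the early stop and the form without it were thus both higher in STZ, by similar factors. The logit of Psi from these reads differed by -0.09 ± 0.35 (SE, adjusted p = 0.874, limma).

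The 85-nt Cpt1b exon (mm9 chr15:89252556-89252640) was included in nearly all messages, with a Psi of 0.97, 0.98 and 0.99 in STZ A, B and C, against 0.99 in both Control libraries. Skipping reads numbered 39, 23 and 16 in STZ and 12 and 18 in Control, or 3.50 ± 1.45 event RPM in STZ and 1.44 ± 0.194 in Control. These skipping reads did not overlap between the groups, whereas Psi did. The logit of Psi differed by -0.61 ± 0.38 (SE, adjusted p = 0.386, limma), and that of the informative reads by -0.81 ± 0.40 (adjusted p = 0.192).

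Pfkfb3 reads were higher in STZ in both of its events, which share their upstream exon. The downstream exon of the 87-nt event also holds the whole 174-nt exon. The junction that skips the 87-nt exon is thus the one that enters the 174-nt exon, and the events are not separate readings. The 174-nt event (mm9 chr2:11401825-11401998) has a last exon of 3111 bases and mostly reads that fit both isoforms (6745 of 7229 in STZ A), and had 952.5, 1672 and 1904.5 event RPM in STZ, against 129 and 141 in Control. The 87-nt event (mm9 chr2:11402874-11402960) had 33.3, 45.5 and 55.0 in STZ, against 2.71 and 4.55 in Control. The STZ means were 11.2 and 12.3 times the Control means.

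Psi of the 174-nt Pfkfb3 exon was 0.94, 0.96 and 0.96 in STZ A, B and C, against 0.75 and 0.94 in Control A and B. Control A stood alone at the low value, on 62 including reads and 0 skipping reads, and Control B was level with STZ A. The logit of Psi differed by 1.11 ± 0.58 (SE, adjusted p = 0.309, limma).

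The 87-nt Pfkfb3 exon had a lower Psi in every STZ library than in either Control library, but too few reads for a test. Psi was 0.10, 0.11 and 0.05 in STZ A, B and C, against 0.44 and 0.26 in Control A and B. Skipping reads numbered 74, 102 and 124 in STZ and 4 and 14 in Control, and including reads 17, 26 and 14 in STZ and 5 and 10 in Control. In event RPM, skipping reads were 16.7 times the Control mean and including reads 3.63 times. Control A had 9 informative reads, 1 short of the minimum, so the event was not tested. Without a minimum the logit of Psi differed by -1.77 ± 0.41 (SE, adjusted p = 0.0823, limma), and without Control A by -1.36 ± 0.48 (adjusted p = 0.237). In the authors' deposited table the Bayes factors against Control A were 23.12, 12.18 and 890.48, and those against Control B 3.21, 2.18 and 1022.29.

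**Figure D2:**
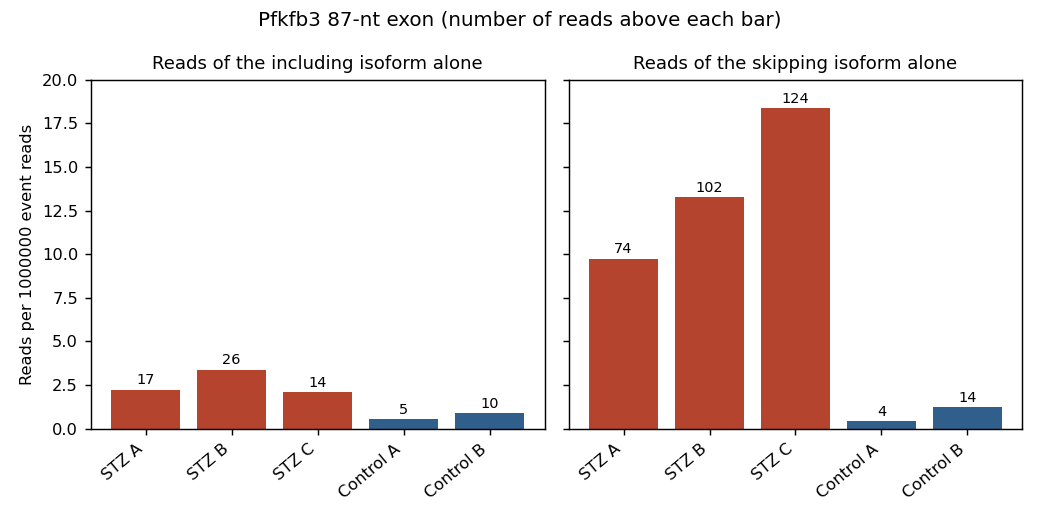
Event RPM that fit the including isoform alone (left) and the skipping isoform alone (right) of the 87-nt Pfkfb3 exon, one bar per library, with the number of reads above each bar. Skipping reads number 74 to 124 in the STZ libraries and 4 and 14 in the Control libraries, and including reads 14 to 26 in STZ and 5 and 10 in Control.

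The Ppargc1b 79-nt exon (mm9 chr18:61542099-61542177) had no including read in any library. Skipping reads numbered 5, 5 and 1 in STZ and 41 and 46 in Control. A count of 0 allows an including share of up to 60% in STZ A and B and 100% in STZ C, and of 7.32% and 6.52% in Control A and B. The deposited Psi was 0.06, 0.11 and 0.15 in STZ, against 0.00 and 0.01 in Control, higher where the reads were fewer. The event was below the minimum of reads and not tested. Without a minimum the logit of Psi differed by 2.40 ± 0.36 (SE, adjusted p = 0.0375, limma), a difference that rests on no including read.

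The 62-nt Gfpt1 exon (mm9 chr6:87009374-87009435), whose loss would shift the frame, had a Psi of 0.67, 0.85 and 0.82 in STZ, against 0.91 and 0.96 in Control. Skipping was seen in 4 reads of STZ A and in 0 reads of the other 4 libraries. Informative reads numbered 27, 17 and 11 in STZ and 50 and 56 in Control. The lower Psi of STZ B and C thus rests on no skipping read. A count of 0 allows a skipping share of up to 17.6% and 27.3% in STZ B and C, and of 6% and 5.36% in Control A and B. The groups did not overlap in Psi, yet the logit differed by -1.43 ± 0.47 with an adjusted p of 0.142 (SE, unadjusted p = 0.0436, limma). The 59-nt exon (mm9 chr6:87003196-87003254) had 1, 3 and 1 including reads in STZ and 2 and 2 in Control, and 5, 2 and 0 skipping reads in STZ against 17 and 17 in Control. Its Psi was 0.14, 0.36 and 0.56 in STZ, against 0.06 in both Control libraries, and it was not tested. Including reads in event RPM overlapped between the groups, at 0.224 ± 0.145 in STZ and 0.196 ± 0.0295 in Control, while skipping reads did not, at 0.307 ± 0.332 in STZ and 1.66 ± 0.251 in Control (SD, n = 3 and n = 2).

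The other genes of the same pathways were read out through 7 lists of 225 genes, of which 77 had events and 76 were tested. Of the 76, 16 rose and 21 fell in STZ, or 48.7%, close to the 49.0% of all genes. With median scaling the split was 19 and 19. The lists are described by these counts and by their leading genes, and nothing in the counts sets them apart from other genes. The counts of each list below stand beside 18.8% of all genes called higher and 30.2% called lower. The median log2 change of all genes was -0.16. Leaving out a library moved the called genes between 23 (without Control B) and 53 (without STZ A), with 24 without Control A. Of the list genes named below, Slc27a1, Eci2, Pnpla6, Gpat4, Plin3, Stk11, Prkaa2, Pdk2, Nrf1, Mgea5 and Nanp lost their call when some library was left out. So did each of the 11 called list events. On the logit of the informative reads, the events of Acot8 (adjusted p = 0.0651, limma), Ncoa2 (0.0744), Prkab1 (0.0839) and Bckdha (0.173) were not called.

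In triglyceride turnover, where Pnpla2 acts, 5 of 12 tested genes rose and 3 fell, with a median log2 change of 0.09. Lipe, the hormone-sensitive lipase that takes the second fatty acid, rose by 1.5 ± 0.18 on the log2 scale, at 632 ± 127 event RPM in STZ and 219 ± 15.5 in Control (adjusted p = 0.000401, limma). Lpin3, a phosphatidate phosphatase on the way to triglyceride, rose by 2.06 ± 0.31, and Pnpla6, a phospholipase of the Pnpla2 family, by 1.23 ± 0.25. Gpat3, an acyltransferase that starts glycerolipid synthesis, fell by 2.24 ± 0.31 (2.25 ± 1.13 in STZ and 13.9 ± 2.49 in Control). Gpat4, of the same activity, fell by 0.68 ± 0.14, and the droplet coat protein Plin3 fell by 0.69 ± 0.14. Abhd5, the protein that activates ATGL and named here after its values were seen, had 283, 214 and 193 event RPM in STZ, against 307 and 306 in Control (log2 change -0.43 ± 0.18, adjusted p = 0.0745, limma).

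In fatty acid uptake and oxidation, where Cpt1b acts, 2 of 12 tested genes rose and 5 fell (4 and 4 with median scaling), with a median log2 change of 0.08. Cpt2, the inner-membrane partner of Cpt1b, fell by 1.36 ± 0.15, at 1273 ± 176 event RPM in STZ and 3252 ± 125 in Control (adjusted p = 0.000239, limma). Cpt1b rose, on a call that was lost when some library was left out. Slc22a5, the carnitine transporter of the cell membrane, fell by 1.31 ± 0.16, and the acyl-CoA thioesterase Acot8 fell by 1.11 ± 0.19. Slc27a1, a fatty acid transport protein, rose by 0.83 ± 0.20, and Eci2, an enoyl-CoA isomerase, by 0.63 ± 0.13. Over all lists together, 9 of 84 tested events were called lower and 2 higher, against 10.1% and 4.84% of all events. The triglyceride list had 0 called of 12. In the fatty acid list, 4 of 16 tested exons were called lower and 0 higher. They included the 140-nt exon of the acyl-CoA synthetase Acsl3 (Psi 0.150 ± 0.02 in STZ and 0.515 ± 0.0778 in Control), the 104-nt exon of Slc22a5 (0.600 ± 0.0529 and 0.925 ± 0.0212) and the 137-nt exon of Acot8 (0.520 ± 0.0529 and 0.815 ± 0.00707).

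In glucose uptake, glycolysis and glycogen, where Pfkfb3 acts, 4 of 16 tested genes rose and 4 fell, with a median log2 change of -0.07. Pfkfb2, the form of the same enzyme known from heart, fell by 2.59 ± 0.24, at 152.6 ± 48.5 event RPM in STZ and 898 ± 103 in Control (adjusted p = 0.000129, limma), against the rise of Pfkfb3. The liver-type phosphofructokinase Pfkl fell by 1.83 ± 0.20. Slc16a3, a lactate exporter, rose by 2.37 ± 0.29, the phosphorylase kinase subunit Phka1 by 2.02 ± 0.20 and the phosphoglucomutase Pgm2 by 1.8 ± 0.34. A 177-nt exon of Phka1 was included more often (Psi 0.290 ± 0.0557 in STZ and 0.0900 ± 0 in Control), and a 74-nt exon of Pfkl less often (0.913 ± 0.0351 in STZ and 1.00 ± 0 in Control).

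Of 4 tested regulators of the PGC-1, PPAR and ERR group, where Ppargc1b belongs, 2 rose and 1 fell, with a median log2 change of 0.17. Nrf1, a transcription factor for mitochondrial genes, rose by 1.09 ± 0.21, and Nrip1, a corepressor of nuclear receptors, by 0.76 ± 0.12. Sirt3, the mitochondrial deacetylase, fell by 1.43 ± 0.16, at 49.7 ± 5.04 event RPM in STZ and 135 ± 2.71 in Control (adjusted p = 0.000261, limma). A 207-nt exon of the coactivator Ncoa2 was included less often (Psi 0.197 ± 0.0306 in STZ and 0.400 ± 0.0283 in Control).

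In the hexosamine pathway, which Gfpt1 opens, 1 of 5 tested genes rose and 1 fell, with a median log2 change of -0.39. Mgea5, the enzyme that removes O-GlcNAc, rose by 0.58 ± 0.20, at 31.6 ± 4.89 event RPM in STZ and 20.6 ± 2.85 in Control, and Nanp, a phosphatase of sialic acid synthesis, fell by 0.79 ± 0.20. Uap1 makes UDP-GlcNAc, the sugar donor at the end of the pathway. Its 51-nt exon was held by fewer messages in STZ, at a Psi of 0.62, 0.61 and 0.53 in STZ, against 0.85 and 0.78 in Control (adjusted p = 0.0485, limma). A 48-nt form of the same exon, which shares its skipping reads, had a Psi of 0.47, 0.47 and 0.42 in STZ, against 0.76 and 0.69 in Control (adjusted p = 0.0256, limma).

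In pyruvate, citrate cycle and ketone use, 1 of 19 tested genes rose and 6 fell, with a median log2 change of -0.47. The calls were 36.8% of this list, against 49.0% of all genes, of which 30.2% were called lower. Pdk2, a kinase that switches pyruvate dehydrogenase off, rose by 0.52 ± 0.14, at 3851 ± 515 event RPM in STZ and 2669 ± 143 in Control (adjusted p = 0.0163, limma). The pyruvate dehydrogenase subunit Pdhb fell by 1.12 ± 0.13, and Pdp1, the phosphatase that switches the enzyme back on, fell by 1.12 ± 0.13. Sucla2, a subunit of succinyl-CoA synthetase, fell by 0.86 ± 0.17. A 51-nt exon of Bckdha, a subunit of the branched-chain keto acid dehydrogenase, had a Psi of 0.02 ± 0 in STZ and 0.0350 ± 0.00707 in Control. It was called lower, but Psi is rounded to 2 decimals, so an SD of 0 does not measure the spread. On the informative reads the exon was not called (adjusted p = 0.173, limma). In insulin and AMPK signalling, 1 of 8 rose and 1 fell. The AMPK catalytic subunit Prkaa2 fell by 1.56 ± 0.40, and Stk11, the kinase that activates AMPK, rose by 0.64 ± 0.14. A 115-nt exon of the AMPK subunit Prkab1 was included slightly more often (Psi 0.987 ± 0.00577 in STZ and 0.920 ± 0 in Control).

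**Figure D3:**
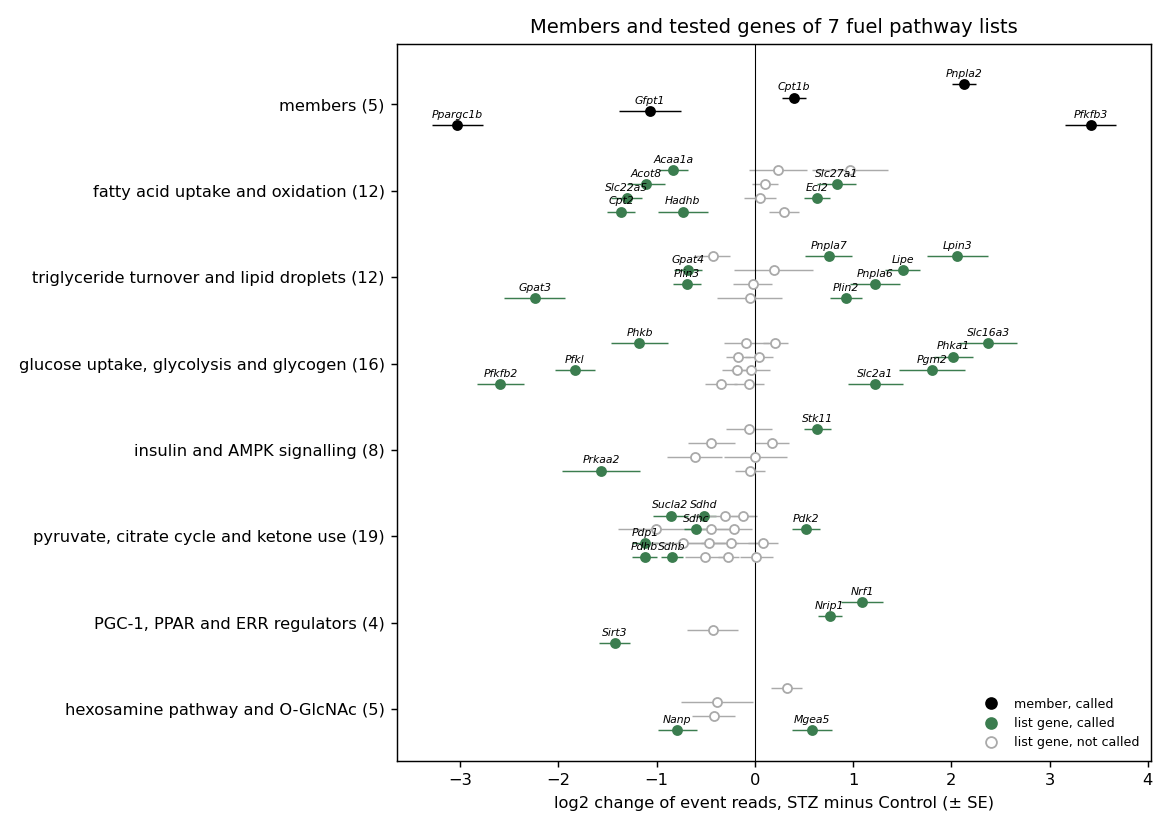
Log2 change of event reads (STZ minus Control, ± SE) for the 5 members (black) and the tested genes of 7 pathway lists (green where called, open grey where not, number tested in brackets, with 1 called gene of the glucose list not drawn). Pfkfb3 at 3.42 and Pfkfb2 at -2.59 lie at opposite sides, as do Cpt1b at 0.40 and Cpt2 at -1.36. The Cpt1b call was lost when some library was left out.

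The genes whose level over the 5 libraries was most like that of a member were found as those with the smallest root mean square difference of centred log2 values. They were Nop56, Gpx3 and Ubb for Pnpla2 (0.0822 to 0.0977), Baiap2, Pabpc1l and Rell1 for Pfkfb3 (0.291 to 0.346), and Plekha5, Smarce1 and Sdcbp for Cpt1b (0.0361 to 0.0447). For Ppargc1b they were Actr3b, Paqr7 and Ogn (0.140 to 0.194), and for Gfpt1 Pde1c, Lrrc56 and Pgghg (0.0466 to 0.0752). Pfkfb3 had the loosest match of the 5.

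Markers of the tissue were present but few had events. Of 12 cardiomyocyte markers 5 were measured, none at 0, and their summed level was 60696 to 67202 event RPM in STZ and 128384 and 129776 in Control. Most of that difference lay in Pln, the calcium pump inhibitor phospholamban, at 33781 ± 4869 in STZ and 102261 ± 203 in Control. The others did not all share its direction. Tnnt2, cardiac troponin T, rose (8648 ± 456 in STZ and 6026 ± 68.4 in Control, adjusted p = 0.00638, limma), Ryr2 fell at a low level (1.01 ± 1.09 and 5.44 ± 2.33, adjusted p = 0.0113), and Ttn (20111 and 20523) and Ldb3 (334 and 265) were not called. Endothelial markers had 1 of 8 measured (Pecam1, above), smooth muscle 2 of 6 (summed 420.5 to 541 in STZ and 421 and 425 in Control), fibroblast 1 of 7 (Postn, 2.37 to 14.5 and 9.62 and 16.8), leukocyte 2 of 8 (58.0 to 121 and 65.2 and 67.2) and skeletal muscle 2 of 10 (Tnnt3 at 0, summed 2.74 to 3.29 and 3.36 and 3.50). The smooth muscle sum joins opposite changes, since Myh11 rose (239 ± 61.8 in STZ and 66.7 ± 12.0 in Control, adjusted p = 0.000485, limma), as Pfkfb3 did, and Smtn fell (250.7 ± 48.8 and 356 ± 9.62, adjusted p = 0.0351, and 0.183 with median scaling). No marker of adipocytes, which are rich in Pnpla2, or of red blood cells had an event. The calls of the markers Tnnt2, Ryr2 and Smtn were lost when some library was left out. The part of any cell type in the member results was not tested.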

How the data were processed

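Left ventricular RNA of 3 STZ and 2 Control samples was sequenced, handled with CASAVA 1.8.2 and aligned with TopHat to mm9, per the submitters' processing notes. The 6 deposited tables set a single STZ library against a single Control library with MISO, per the file headers. The sources used here give neither its version nor the event filter. Psi is a fraction estimated by the authors and rounded to 2 decimals, per the file headers. Reads per event are deposited by the authors in 4 classes (including only, skipping only, both, neither), a unit recorded as other, as is the difference of Psi. The Bayes factor is a ratio deposited by the authors. The 36 other columns per library were not used.

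Events were named by unique length match to GENCODE M21 (5897), otherwise by the tables' symbol (352), and 367 stayed unnamed. Of 3348 with both names, 3268 gave the same Ensembl gene. Genes with a mean of at least 10 event reads were tested on log2(event RPM + 1), and events on the logit of Psi clipped to 0.01 to 0.99, in limma 3.58.1 (empirical Bayes with a trend, two-sided, Benjamini-Hochberg over all features), after tests on simulated data. Reads shared by 2 events of a gene count in both. Floors allow 3 reads for a count of 0 and cover counting error only. The named genes are the members, up to 3 called genes and 3 called events per list and direction by size of change, and the 3 nearest profiles of each member. A gene that this rule names is not reported here. The members and lists were chosen with earlier results of these data known. Alternatives were other pseudocounts, filters, clips, scalings, read classes, priors, names and each library left out.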

Additional observations from a re-analysis of the deposited data

Results flagged for a closer look

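The tables also hold reads on an event that fit neither isoform, which enter neither Psi nor the event reads. For Pnpla2 these came to 2230.4 ± 131 per 1000000 such reads in STZ and 575 ± 17.6 in Control (SD, n = 3 and n = 2), 3.88 times as many, with no overlap between libraries. For Pfkfb3 they came to 467 ± 142 in STZ and 40.8 ± 1.89 in Control, 11.4 times as many, again with no overlap. Both were flagged as a signal above Control in reads that the comparisons did not use, and the difference was not tested. The share of all genes without overlap in such reads was not counted. In event reads it was 68.8%.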

How the results depend on the processing

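Pnpla2, Pfkfb3 and Ppargc1b were called with the same sign under all 14 alternatives, at log2 changes of 2.03 to 2.31, 3.22 to 3.72 and -3.74 to -1.82, the last over pseudocounts of 0.1 to 5. Cpt1b (0.29 to 0.57) lost its call in 5 of 13, among them with informative reads only (adjusted p = 0.0884, limma) and with no trend in the prior (0.0745). Cpt1b had no event when the tables' symbols came first. That order is the one by which the events of these genes were first defined. The fit under it was added after seeing the data. Gfpt1 (-1.35 to -0.68) lost it in 4 of 14. Leaving out each library in turn called 3 to 5 of the 5 members, 23 to 53 genes of the pathway lists, 1023 to 2407 of all genes and 282 to 467 of all events. The fewest genes over all were called without Control A (1023) and Control B (1040), where the lone Control library was assumed to vary like the STZ libraries, and the most without STZ A (2407). Of the member events 0 were called under every alternative with a minimum of reads, and 1, the Ppargc1b exon, with none. No Psi change of a tested member event reversed. No paired analysis was possible because the library names carry no replicate number. Reads limit Ppargc1b, Gfpt1 and the Pfkfb3 87-nt exon most.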

Other observations

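Reads that fit neither isoform were also counted for Ppargc1b and Gfpt1, per 1000000 such reads. Ppargc1b had 60.7 ± 23.5 in STZ and 313 ± 39.2 in Control, and Gfpt1 had 10.8 ± 4.38 in STZ and 22.7 ± 1.5 in Control (SD, n = 3 and n = 2). The groups did not overlap in either gene, and the differences were not tested. How many of all genes were apart in such reads was not counted. In event reads 68.8% of all genes were apart.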
